A study of Homo sapiens with 4 samples.

Results

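The replacement histone variants are histone proteins whose genes are transcribed into polyadenylated mRNA in and outside S phase, and the 10 genes chosen by symbol were H2AFZ, H2AFX, H2AFV, H2AFY, H2AFY2, H2AFJ, H3F3A, H3F3B, H1F0 and H1FX. They are 10 of the 58735 genes listed in the tables, and all 10 passed the filter on low counts that left 15075 genes to test. HaCaT cells, an immortalised human keratinocyte line, were profiled by RNA-seq after transfection with 200 pmol of a normal control siRNA (siControl, 2 libraries) or of siRNA against ALKBH5 (siALKBH5, 2 libraries). All 4 libraries came from the wild-type line on the same medium, and neither the labels nor the methods say which ALKBH5 siRNA was used or whether the 2 libraries of a group came from separate cultures. The p-values below therefore rest only on the spread between these libraries, which may be technical. In edgeR, the main test, the p-value and standard error (SE) of a gene lean mostly on the spread over all tested genes. That spread had 30.4 prior degrees of freedom, against 2 from the gene's own libraries. ALKBH5 is an enzyme that removes the methyl group of N6-methyladenosine (m6A) from mRNA, and the comparison asks which transcripts differ when it is depleted.

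Nucleosomes wrap DNA around a core of H2A, H2B, H3 and H4, and H1 binds the linker DNA between them. Most histone protein is made in S phase from clustered, intronless genes whose mRNAs end in a stem-loop in place of a poly(A) tail. Replacement variants are made throughout the cell cycle and are placed by their own chaperones: H3.3 at active genes and heterochromatic repeats, H2A.Z at promoters, macroH2A on silenced chromatin, and H2AX across the genome, where its phosphorylation marks double-strand breaks. The RNA had been selected with poly-T beads, so the libraries were built to hold polyadenylated mRNA.

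Total counts were 16017502 and 17877181 for the siControl libraries, and 18837807 and 16618169 for the siALKBH5 libraries. The targeted gene was checked before any other: ALKBH5 stood at 93.8 and 87.6 CPM (counts scaled to a common library total, with library sizes adjusted by TMM) in siControl and at 51.2 and 49.6 CPM in siALKBH5, a log2 fold change of -0.85 ± 0.05 (SE). The siALKBH5 libraries thus kept 55.5% of the control mean. The keratinocyte label was borne out by KRT5, the basal keratin, at 7163 and 6905 CPM in siControl and at 11184 and 11312 CPM in siALKBH5. All 8 keratinocyte markers reached 1 CPM in a library, and 4 were called higher and 3 lower in siALKBH5. Over all tested genes 19.3% were called higher and 17.3% lower. Of 7 fibroblast markers 3 reached 1 CPM in a library, with a list sum of 21.9 and 22.8 CPM in siControl and 18.7 and 19.1 CPM in siALKBH5, and 2 were called lower, while COL1A2 and PDGFRA had 0 counts in every library. Of 3 endothelial markers 2 reached 1 CPM, with a list sum between 32.5 and 35.5 CPM, and 1 was called higher and 1 lower, while PECAM1 had at most 1 count. The melanocyte list (1 of 5 at 1 CPM) summed to at most 3.95 CPM and the immune list (0 of 4) to at most 0.559 CPM. The part of these markers in any result was not tested. These totals are for whole cultures, so fewer cells of a kind and less RNA per cell cannot be told apart.

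Sequences bear on which of these genes the counts can separate. H3F3A and H3F3B encode the same H3.3 protein from different DNA. Below are the first 90 coding bases of each gene and of H3F3AP4, a processed pseudogene of H3F3A, from GENCODE 29 on GRCh38. Capitals mark the 21 bases at which H3F3A or its pseudogene differs from H3F3B. They lie at chr1:226064352-226064441 (plus strand), chr17:75779085-75779174 (minus strand) and chr2:174719908-174719997 (plus strand).
H3F3A: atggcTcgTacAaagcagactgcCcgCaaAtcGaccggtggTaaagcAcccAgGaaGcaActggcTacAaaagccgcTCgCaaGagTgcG
H3F3B: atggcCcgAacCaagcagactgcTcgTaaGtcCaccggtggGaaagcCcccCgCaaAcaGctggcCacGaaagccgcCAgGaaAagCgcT
H3F3AP4: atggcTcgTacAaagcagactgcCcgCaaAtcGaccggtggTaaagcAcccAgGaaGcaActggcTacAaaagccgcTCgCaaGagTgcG
Over the whole coding stretch of 408 bases, H3F3A and H3F3B were identical at 78.4% of positions and shared no identical run longer than 14 bases. H3F3AP4 matched H3F3A without a mismatch over all 411 of its annotated bases, 31.4% of the 1308-base H3F3A transcript. H2AFZ and H2AFV, the H2A.Z genes, were identical at 80.5% of 384 coding bases, with a longest identical run of 23 bases. H2AFY and H2AFY2, the macroH2A genes, were identical at 67.6% of 1116 coding bases when aligned without gaps. Exact stretches of 50 bases or more were also shared with other genes by H2AFZ (15.6% of its transcript), H2AFY (28.1%) and H1FX (23.2%). For H2AFY these genes were C5orf66 and AC026691.1, which overlap it on the opposite strand and had at most 40 and 7 counts in a library.

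H2AFX stood apart from the other 9 genes in a sequence search of the principal transcripts. Its single-exon transcript of 1614 bases was the only principal transcript among the 10 with a match to the histone stem-loop, the hairpin that ends replication-dependent histone mRNA. The stretch with that hairpin in capitals is shown because H2AFX can end its mRNA either there or at a poly(A) site further on.
H2AFX stem-loop: caaaGGCCCTTTTAAGGGCCaccaccgc
The hairpin lies in the 3′ untranslated region at chr11:119094898-119094913 on the minus strand (GRCh38), begins 53 bases after the last coding base and is followed by 1044 more bases of the annotated transcript. The same pattern was found in 45.1% of 71 replication-dependent histone genes, as annotated, and in 0.0202% of 19851 other protein-coding genes, H2AFX among them. A gene without a match may thus still hold a hairpin. The poly-T selection was made to keep the polyadenylated form, and counts per gene do not show how much mRNA that ends at the hairpin remained.

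The promoters of 9 of the 10 genes were matched in RefSeq sequences on GRCh38.p14, in windows from 250 bases before to 50 bases after an annotated start. H1F0 was not among them. The 250 bases before the start are shown for H2AFX and H2AFV, which were higher in siALKBH5, and for H3F3B, which was lower. Capitals mark CCAAT on either strand (ATTGG when read on the other) and TATAAA on the strand shown. The windows are chr11:119095466-119095715, chr7:44848088-44848337 and chr17:75779780-75780029, all on the minus strand.
H2AFX promoter: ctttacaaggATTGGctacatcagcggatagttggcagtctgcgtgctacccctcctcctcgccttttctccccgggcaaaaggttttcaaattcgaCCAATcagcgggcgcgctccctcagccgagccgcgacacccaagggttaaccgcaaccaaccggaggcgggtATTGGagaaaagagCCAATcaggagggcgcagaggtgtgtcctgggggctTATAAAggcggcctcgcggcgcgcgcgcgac
H2AFV promoter: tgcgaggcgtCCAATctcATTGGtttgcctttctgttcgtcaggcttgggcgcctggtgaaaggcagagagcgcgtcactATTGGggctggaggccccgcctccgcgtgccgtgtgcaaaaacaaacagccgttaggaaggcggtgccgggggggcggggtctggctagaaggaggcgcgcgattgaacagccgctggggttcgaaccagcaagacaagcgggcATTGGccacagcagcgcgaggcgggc
H3F3B promoter: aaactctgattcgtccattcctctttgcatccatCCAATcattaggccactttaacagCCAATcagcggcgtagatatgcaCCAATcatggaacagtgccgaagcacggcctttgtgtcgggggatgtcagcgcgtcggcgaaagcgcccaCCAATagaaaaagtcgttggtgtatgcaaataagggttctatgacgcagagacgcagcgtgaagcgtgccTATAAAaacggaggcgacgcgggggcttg
H2AFX, H2AFV and H3F3B each held 4 CCAAT matches, and H2AFZ and H2AFJ held 3 each, whereas 3.26% of 35116 RefSeq promoter windows held 3 or more. The windows of H3F3A held 0 or 1 and those of H2AFY 0 or 2. The part of these letters in the changes was not tested. No CCAAT was found in the windows of H1FX and H2AFY2. TATAAA, which 7.33% of all windows held on the strand shown, was at position -31 in H2AFX, H2AFZ and H1FX and at position -29 in H3F3B, counted from the RefSeq start. The element TTTGAA or TTCGAA, searched on both strands and held by 16.4% of all windows, was found in H2AFX, H2AFV and H2AFZ.

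After ALKBH5 knockdown the replacement variants moved in both directions. Of the 6 H2A genes, H2AFX, H2AFV and H2AFY were higher in siALKBH5 and none was called lower. H3F3A and H3F3B, the H3.3 genes, and H1F0 and H1FX, the linker histone genes, were all lower. H2AFZ, H2AFJ and H2AFY2 did not pass the threshold of an adjusted p under 0.05 (edgeR's quasi-likelihood test with Benjamini-Hochberg adjustment over all genes tested). In total 3 of 10 were higher, where 19.3% of all tested genes were, and 4 of 10 were lower, where 17.3% of all tested genes were. Both siALKBH5 libraries lay above the siControl libraries for 3 of the 10 (32.8% of all tested genes) and below them for 6 of the 10 (33.5% of all tested genes). No called gene of the 10 reached a change of 1 on the log2 scale, a stricter rule that 2.92% of all tested genes met. The median log2 fold change was -0.13 over the 10 genes and -0.01 over all tested genes, and 50% of all tested genes lay between -0.20 and 0.20.

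**Figure D1:**
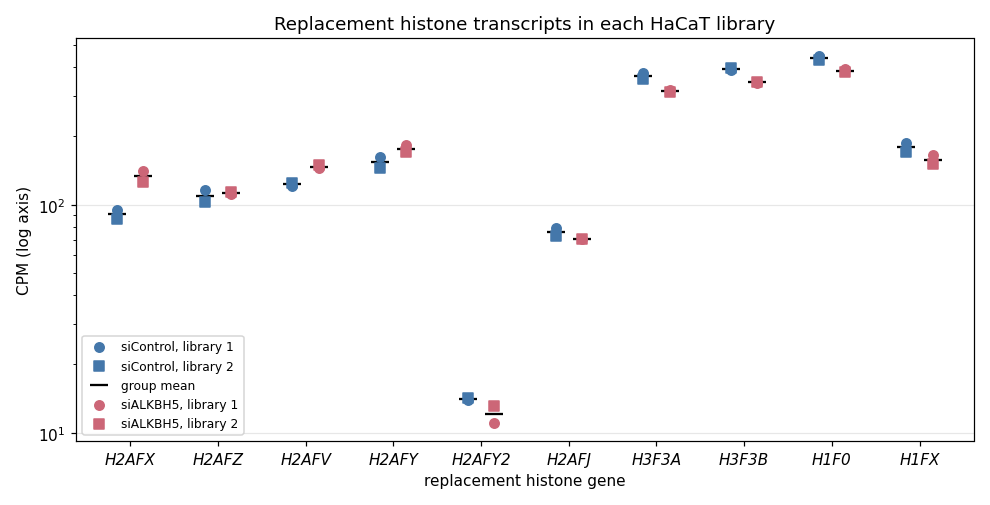
CPM of each replacement histone gene (log axis) in the 2 siControl libraries (blue) and the 2 siALKBH5 libraries (red), with black dashes for group means. H2AFX shows the widest gap between the groups, from 86.9 to 94.6 CPM in siControl and from 126 to 141 CPM in siALKBH5, while H2AFZ overlaps.

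H2AFX encodes the variant that is phosphorylated around DNA double-strand breaks, and it had the largest change of the 10 genes. It stood at 94.6 and 86.9 CPM in siControl and at 141 and 126 CPM in siALKBH5. Both siALKBH5 libraries were above both siControl libraries. The log2 fold change was 0.56 ± 0.05 (SE, n = 2 libraries per group), or 1.47-fold, with an adjusted p of 2.11e-11 in edgeR, and 1134 of the tested genes had a higher one. Without each library in turn it lay between 0.47 and 0.64. The call of H2AFX was kept at a higher adjusted p with DESeq2 (8.27e-07) and with limma on log2(FPKM + 0.1) (0.0369). No gene overlapping H2AFX was annotated, and its transcript shared no exact stretch of 50 bases or more with another gene.

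Of the H2A.Z genes, H2AFV passed the threshold and H2AFZ did not, and the difference between them is taken up with the ratios. H2AFV, which encodes H2A.Z.2, stood at 121 and 125 CPM in siControl and at 145 and 149 CPM in siALKBH5. The groups did not overlap, and the log2 fold change was 0.26 ± 0.04 (SE; adjusted p = 2.15e-06, edgeR). The call of H2AFV was kept with limma on log2(FPKM + 0.1), at an adjusted p of 0.0482. H2AFZ, which encodes H2A.Z.1, stood at 116 and 103 CPM in siControl and at 111 and 113 CPM in siALKBH5, so that both siALKBH5 libraries fell between the siControl libraries. Its log2 fold change was 0.04 ± 0.05 (SE; adjusted p = 0.56, edgeR), with a 95% interval from -0.06 to 0.13. Without siControl replicate 2 the sign of H2AFZ turned, to -0.05. A processed pseudogene of H2AFV, H2AFVP1, was counted 26 and 36 times in the siControl libraries and 67 and 51 times in the siALKBH5 libraries, and the log2 fold change of H2AFV with these counts added was 0.27.

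The macroH2A genes encode H2A variants with a large globular domain attached to the histone fold. H2AFY (macroH2A1) stood at 162 and 145 CPM in siControl and at 182 and 170 CPM in siALKBH5. The groups did not overlap, by a margin smaller than the gap between the siControl libraries. Its log2 fold change was 0.20 ± 0.04 (SE; adjusted p = 2.12e-04, edgeR), and it was 0.12 without siControl replicate 2 and 0.28 without siControl replicate 1. The call of H2AFY was lost with DESeq2 (adjusted p = 0.0769) and with limma on log2(FPKM + 1) (adjusted p = 0.167), in a range from 9.3e-09 to 0.19 over 15 alternatives. H2AFY2 (macroH2A2) was the least abundant of the 10, at 14.0 and 14.2 CPM in siControl and 11.1 and 13.1 CPM in siALKBH5. The siALKBH5 libraries were the lower ones, yet the log2 fold change of -0.23 ± 0.12 (SE) was not called (adjusted p = 0.14, edgeR) and its 95% interval ran from -0.47 to 0.02. It was -0.11 without siALKBH5 replicate 1 and -0.34 without siALKBH5 replicate 2. H2AFY2 overlaps AIFM2 on the opposite strand, and the counting is not stated to use strand. For AIFM2 the siControl libraries gave counts of 565 and 590 and the siALKBH5 libraries gave 707 and 673, against 225 and 256, then 207 and 215, for H2AFY2.

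H2AFJ encodes an H2A variant close to canonical H2A. It stood at 78.9 and 72.6 CPM in siControl and at 71.0 and 70.9 CPM in siALKBH5. The siALKBH5 libraries were just below the lower siControl library. The log2 fold change was -0.09 ± 0.05 (SE; adjusted p = 0.161, edgeR), with a 95% interval from -0.20 to 0.01. It was -0.03 without siControl replicate 1 and -0.15 without siControl replicate 2.

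The H3.3 genes were both lower in siALKBH5, and by nearly the same amount. H3F3A stood at 380 and 356 CPM in siControl and at 319 and 312 CPM in siALKBH5, a log2 fold change of -0.22 ± 0.03 (SE; adjusted p = 2.52e-07, edgeR). H3F3B stood at 392 and 399 CPM in siControl and at 343 and 345 CPM in siALKBH5, a log2 fold change of -0.20 ± 0.03 (SE; adjusted p = 1.57e-07, edgeR). The groups did not overlap for either gene, and the siALKBH5 mean was 85.8% of the control mean for H3F3A and 87.0% for H3F3B. The call of H3F3A was lost with limma on log2(FPKM + 0.1) (adjusted p = 0.0583, the highest of 15 alternatives, of which the lowest was 6.56e-20). That of H3F3B was kept in the same limma fit, at an adjusted p of 0.0436. H3F3B overlaps UNK by 1123 bases on the opposite strand. For UNK the siControl libraries gave counts of 383 and 466 and the siALKBH5 libraries gave 514 and 407.

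H3F3AP4, which has the bases of the H3F3A coding stretch printed above, was counted as a gene of its own. The siControl libraries gave H3F3AP4 counts of 1270 and 1293 and the siALKBH5 libraries gave 1239 and 1036, together 20.5% of the H3F3A counts over the 4 libraries. How reads that match several places were counted is not given in the sources used here, so the counts of the gene and of its pseudogene cannot be assigned with certainty. The log2 fold change of H3F3AP4 was -0.22 ± 0.05 (SE; adjusted p = 1.53e-03, edgeR). That of H3F3A with the counts of its 6 pseudogenes added was -0.22.

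The linker histone genes were also lower. H1F0 encodes H1.0, the linker histone that accumulates in cells leaving the cell cycle, and it was the most abundant of the 10 by CPM, at 448 and 433 in siControl and 395 and 380 in siALKBH5. Its log2 fold change was -0.18 ± 0.03 (SE; adjusted p = 1.02e-06, edgeR), and the groups did not overlap. H1FX, which encodes H1.10, stood at 186 and 171 CPM in siControl and at 165 and 150 CPM in siALKBH5. The groups were separated by less than the gap between the libraries of either group, with a log2 fold change of -0.18 ± 0.04 (SE; adjusted p = 8.68e-04, edgeR). It was -0.11 without siControl replicate 1 and without siALKBH5 replicate 2, where the call was kept (adjusted p = 0.0467 and 0.0405, edgeR), and up to -0.24 without either of the other libraries. The call of H1FX was lost with DESeq2 (adjusted p = 0.123) and with limma on log2(FPKM + 1) (adjusted p = 0.121), in a range from 3.59e-07 to 0.148 over 15 alternatives. That of H1F0 was lost with limma on log2(FPKM + 0.1) (adjusted p = 0.0621), the highest of a range that began at 9.15e-17. H1F0 has no overlapping gene, and H1FX-AS1, which overlaps H1FX on the opposite strand, had at most 31 counts in a library.

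**Figure D2:**
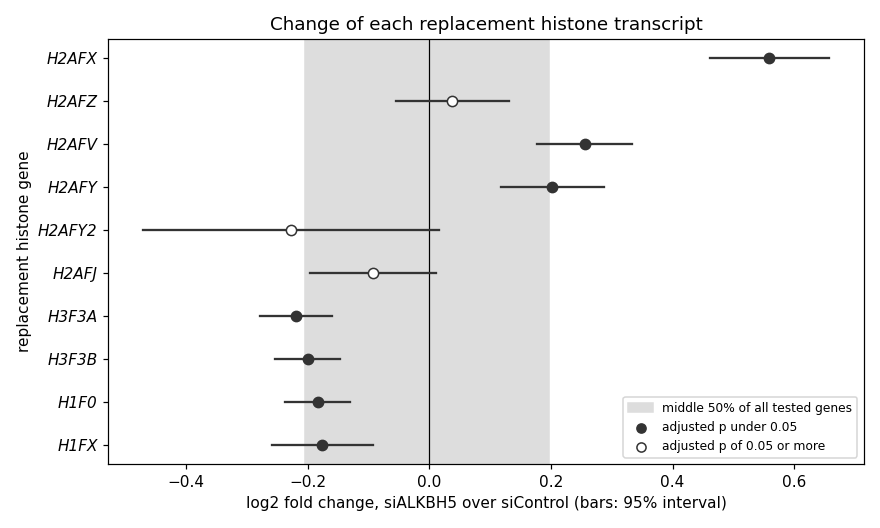
Log2 fold change (siALKBH5 over siControl) of each gene, with 95% intervals from edgeR, filled points for an adjusted p under 0.05 and a grey band for the middle 50% of all tested genes. H2AFX at 0.56 lies farthest from the band, and the H3.3 and H1 genes lie at its lower edge, between -0.22 and -0.18.

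Genes that share a protein or a family were compared as ratios within a library, which do not depend on library scaling. The lengths used here are those of the principal transcripts. The ratio of H3F3A to H3F3B was 2.01 and 1.85 in siControl and 1.92 and 1.87 in siALKBH5, so that the siALKBH5 values fell between the others. The ratio of H1F0 to H1FX was 1.55 and 1.63 in siControl and 1.54 and 1.62 in siALKBH5, again overlapping. These ratios changed by -0.02 and -0.01 on the log2 scale, within their pooled SD of 0.06 and 0.05.

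Ratios in the H2A.Z and macroH2A pairs differed more. That of H2AFZ to H2AFV was 0.734 and 0.634 in siControl and 0.591 and 0.582 in siALKBH5, a log2 change of -0.22 with a pooled SD of 0.11, which was -0.11 without siControl replicate 1 and -0.32 without siControl replicate 2. That of H2AFY to H2AFY2 was 8.24 and 7.24 in siControl and 11.7 and 9.25 in siALKBH5, a log2 change of 0.43 with a pooled SD of 0.19, which was 0.26 without siALKBH5 replicate 1 and 0.60 without siALKBH5 replicate 2. Neither pair of groups overlapped, and the 2 siControl libraries differed most for H2AFZ to H2AFV. With 2 libraries against 2, the exact two-sided permutation test cannot give a p below 0.333, which is what both ratios gave, so these differences remain a description. No adjustment over the 4 ratios was made, since none could pass.

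**Figure D3:**
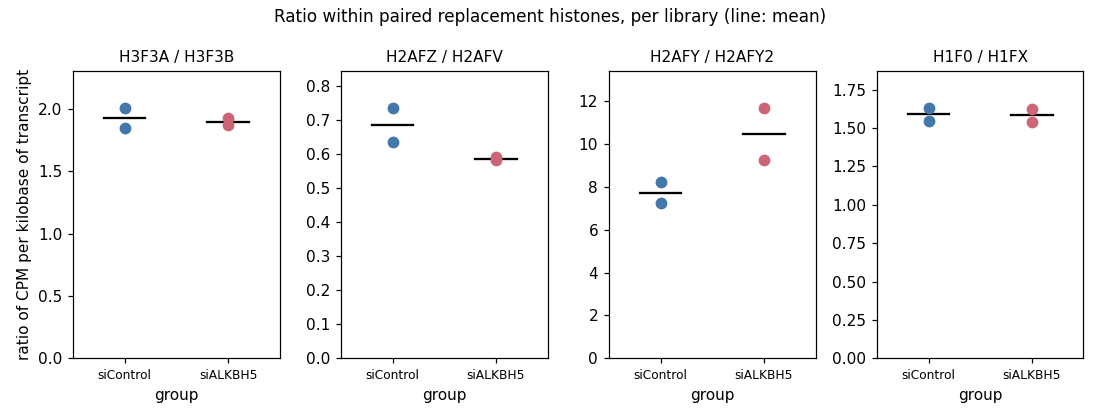
Ratio of CPM per kilobase of principal transcript within 4 pairs of genes, one point per library and a line for the group mean, with axes from 0. The H3F3A to H3F3B and H1F0 to H1FX ratios overlap between groups, whereas H2AFZ to H2AFV is lower and H2AFY to H2AFY2 higher in siALKBH5.

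The order of the 10 genes by level depended on the length used. Per kilobase of the gene length listed in the tables, which covers the exons of every annotated transcript, H1F0 led at 188 ± 4.62 CPM per kilobase (SD, n = 2 siControl libraries), followed by H1FX at 118 ± 7.17 and H3F3A at 117 ± 5.37, whose libraries overlapped. H3F3B at 64.4 ± 0.820, H2AFX at 56.2 ± 3.38, H2AFZ at 47.5 ± 3.92, H2AFV at 25.9 ± 0.547, H2AFJ at 22.6 ± 1.33, H2AFY at 8.66 ± 0.677 and H2AFY2 at 7.12 ± 0.0943 CPM per kilobase followed without overlap of neighbours.

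The listed length was 17730 bases for H2AFY, 6.36 times its principal transcript, and 4749 bases for H2AFV, 6.32 times. For H2AFX, H2AFY2, H1F0 and H1FX the listed length and the principal transcript were equal. Per kilobase of principal transcript, H3F3A led at 281 ± 12.9, with H1F0 at 188 ± 4.62, H2AFV at 164 ± 3.46 and H3F3B at 146 ± 1.86 CPM per kilobase, none of them overlapping. H1FX at 118 ± 7.17, H2AFJ at 118 ± 6.91 and H2AFZ at 112 ± 9.23 overlapped with their neighbours, as did H2AFX at 56.2 ± 3.38 with H2AFY at 55.0 ± 4.30. H2AFY2 was last at 7.12 ± 0.0943 CPM per kilobase on either length. Thus H2AFV was below H2AFZ on the listed length and above it on the transcript length, and no transcript-level counts were used to choose between them. Fold changes between the groups are not touched by this choice.

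**Figure D4:**
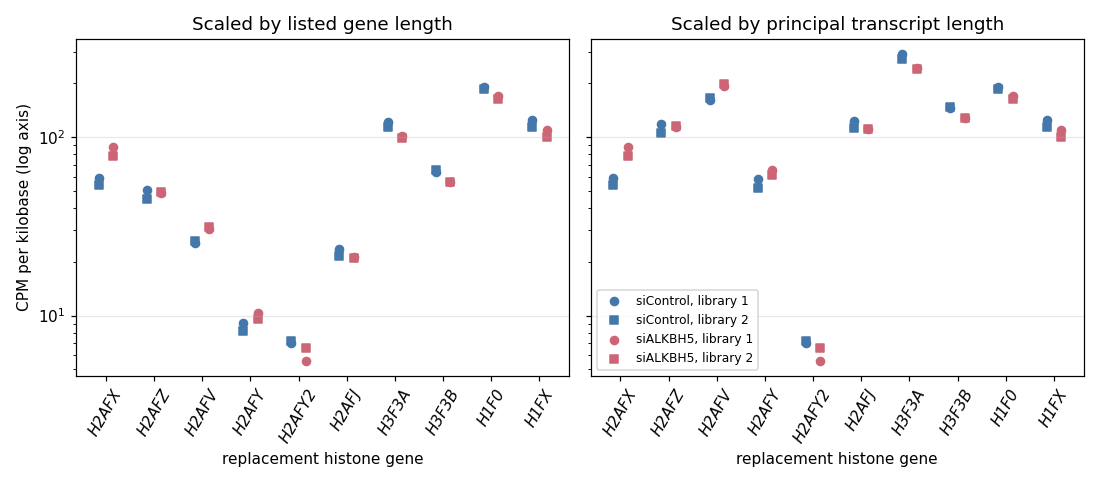
CPM per kilobase (log axis) of each gene in the 4 libraries, scaled by the listed gene length (left) and by the length of the principal transcript (right). H2AFV rises from 25.9 to 164 and H2AFY from 8.66 to 55.0 CPM per kilobase in siControl between the panels, while H2AFX, H2AFY2, H1F0 and H1FX keep their values.

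GGACT, a common sequence around m6A sites, was counted in the principal transcripts, where the median over 19641 protein-coding genes was 0.935 per kilobase. H2AFZ held 3.06 per kilobase and H2AFX 1.86, both above the upper quartile of 1.42. H3F3A, H2AFY, H1FX and H2AFY2 held between 0.505 and 0.765 per kilobase. None was found in H2AFV, H2AFJ, H3F3B or H1F0. Among the 10 genes the letters occurred at the highest density in H2AFZ. Among the called genes they were found in the principal transcripts of H2AFX, H2AFY, H3F3A and H1FX and not in those of H2AFV, H3F3B and H1F0. Only GGACT was searched, whereas the study reports the wider RRACH motif (R is G or A, H is A, C or U). A gene without GGACT may thus still hold such a motif, in this transcript or another. A match of letters is not a measured m6A site, and no m6A measurement was used here. The part of these letters in the changes was not tested.

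The replacement genes were set beside the replication-dependent genes of their class, by counts summed within each library. For H2A, the 6 replacement genes summed to 3.08 and 2.85 times the replication-dependent H2A counts in siControl and to 4.88 and 4.76 times in siALKBH5. For H3 the ratio was 26.4 and 24.5 in siControl and 28.6 and 27.9 in siALKBH5. For H1 it was 11.8 and 11.1 in siControl and 14.2 and 12.7 in siALKBH5. Each ratio was higher in both siALKBH5 libraries. For H3 and H1 the replacement genes were all called lower, so these ratios rose only as the summed replication-dependent counts fell by more. The counts were not scaled by gene length, and those of the replication-dependent genes hold only what poly-T selection and the counting of any near-identical copies left.

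Of 71 replication-dependent histone genes 30 were tested, of which 12 were lower in siALKBH5 and none higher, with a median log2 fold change of -0.39. Over all tested genes 17.3% were lower and 19.3% higher. The 12 lower genes included HIST2H4B (log2 fold change -2.45 ± 0.44), HIST1H4E (-1.20 ± 0.35) and HIST1H2AE (-0.88 ± 0.18, all SE), each at under 10 CPM. How far these genes share sequence with other histone genes was not examined. CENPA, the centromeric H3 variant, was the only tested gene among 12 listed for other histone variants, and it was higher, at 16.8 and 17.2 CPM in siControl and 24.5 and 24.5 CPM in siALKBH5 (log2 fold change 0.53 ± 0.09, SE). H3F3C, which encodes H3.5, had 1 count in all.

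Factors that place or remove these variants were also counted. Of 8 genes for H3.3 deposition, 2 were higher and 1 was lower, where 19.3% and 17.3% of all tested genes were. CABIN1, a subunit of the HIRA complex, rose from 76.8 ± 0.771 to 95.3 ± 0.775 CPM (SD, n = 2), DAXX, the chaperone of H3.3 at heterochromatin, had a log2 fold change of 0.17 ± 0.06 (SE), and UBN2, another partner of HIRA, fell by 0.20 on the log2 scale. The median log2 fold change of the list was 0.06, while both H3.3 genes were lower. These calls were not stable: DESeq2, limma on FPKM, and the fits without siControl replicate 2 or without siALKBH5 replicate 2 each left 1 higher and 0 lower. Without siControl replicate 1 there were 2 higher and 0 lower, and without siALKBH5 replicate 1 there were 1 and 1.

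Of 14 genes for deposition and removal of H2A.Z, 6 were higher and 1 was lower, where 19.3% and 17.3% of all tested genes were. The median log2 fold change of the list was 0.04. RUVBL2 and RUVBL1, ATPases of the SRCAP and p400 complexes, had log2 fold changes of 0.31 ± 0.05 and 0.21 ± 0.07 (SE). ANP32E, the chaperone that removes H2A.Z, had one of 0.22 ± 0.06 (SE). DMAP1, a subunit of the p400 complex, fell by 0.33 on the log2 scale. The 6 higher became 2 with DESeq2, 1 with limma on FPKM, 2 without siControl replicate 2 and 3 without siALKBH5 replicate 1, while 1 was lower in each of these fits.

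Of 14 genes of the H2AX damage response, 4 were higher and 2 were lower, where 19.3% and 17.3% of all tested genes were. The median log2 fold change of the list was 0.08. BRCA1, a repair factor recruited downstream of H2AX, had a log2 fold change of 0.75 ± 0.10 (SE). PRKDC, a kinase that phosphorylates H2AX, had a log2 fold change of 0.52 ± 0.03 (SE), and MDC1, the reader of phosphorylated H2AX, had one of 0.48 ± 0.08 (SE). NBN, of the MRN complex, and ATM, another kinase of H2AX, fell by 0.20 and 0.16 on the log2 scale. These 2 lower calls became 0 with DESeq2, with limma on FPKM and without siControl replicate 1, siALKBH5 replicate 1 or siALKBH5 replicate 2, and 1 without siControl replicate 2, whereas 3 or 4 genes were higher in each of these fits.

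Of 14 general histone chaperones, 9 were higher and 2 were lower, where 19.3% and 17.3% of all tested genes were. The median log2 fold change of the list was 0.18. ASF1B, a chaperone of H3 and H4, rose from 19.2 ± 0.379 to 37.2 ± 1.59 CPM (SD, n = 2). CHAF1B and CHAF1A, subunits of the CAF-1 complex that assembles nucleosomes on newly copied DNA, had log2 fold changes of 0.85 ± 0.18 and 0.41 ± 0.09 (SE). RBBP4, shared by CAF-1 and other chromatin complexes, and SET, a chaperone in the nucleus, fell by 0.21 and 0.08 on the log2 scale. These 2 lower calls became 0 without siControl replicate 1 and with limma on FPKM, and 1 with DESeq2. The 9 higher became 3 with limma on FPKM and 7 with DESeq2 or without any 1 library.

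Proliferation genes were higher in siALKBH5. Of 20 proliferation genes 19 were higher and none lower, where 19.3% and 17.3% of all tested genes were. Like the other related lists, this one was chosen with earlier results of these data known. The list had a median log2 fold change of 0.80. Its summed level was 1544 and 1549 CPM in siControl and 2603 and 2599 CPM in siALKBH5. MKI67, a marker of cycling cells, stood at 195 and 199 CPM in siControl and at 364 and 366 CPM in siALKBH5. MYBL2, a transcription factor of cycling cells, TYMS and RRM2, enzymes of nucleotide synthesis, had log2 fold changes of 1.35 ± 0.07, 1.04 ± 0.17 and 1.03 ± 0.11 (SE). The part of this shift in the levels of H2AFX or of any other replacement histone gene was not tested. These are transcript levels, and the study reported unaltered proliferation of HaCaT cells after ALKBH5 knockdown in its cell assays.

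**Figure D5:**
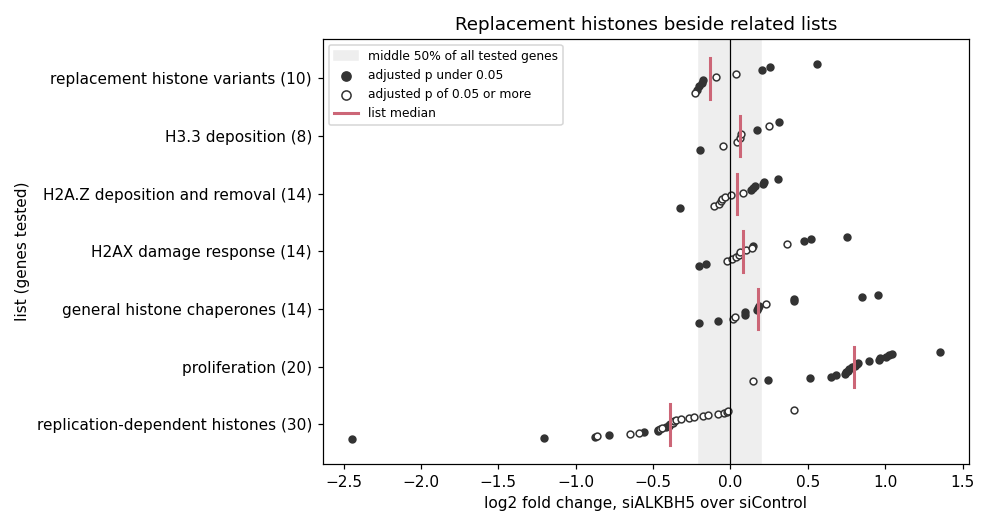
Log2 fold change (siALKBH5 over siControl) of every tested gene of the replacement variants and 6 related lists, filled where the adjusted p was under 0.05, with a red line at each list's median. The replacement variants spread on both sides of 0, between -0.23 and 0.56, while the proliferation list has its median at 0.80 and the replication-dependent histones at -0.39.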

How the data were processed

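Poly-A selected RNA from HaCaT cells was sequenced in 4 libraries, and the processing notes name CASAVA, HISAT2 2.0.5, featureCounts 1.5.0-p3, DESeq2 1.20.0 and hg38. The deposited values are raw counts per gene, made by the authors without normalization, with FPKM values, which the authors scaled by the listed gene length and which were not tested as deposited. The authors' own columns of log2 ratios and p-values, each for 1 siALKBH5 library against 1 siControl library, were deposited too but not used. Strand and the handling of reads with several matches are not given in the sources used here.

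Genes passing filterByExpr (15075) were fitted with edgeR 4.0.16 (TMM, glmQLFit, glmQLFTest, R 4.3.3), after a check on simulated data, and called at a Benjamini-Hochberg adjusted p under 0.05. Alternatives were DESeq2 1.42.0, other scalings and filters, limma 3.58.1 on recomputed FPKM, a replicate block, pseudogene counts and leaving out each library. Total counts ranged from 16017502 to 18837807. Mitochondrial genes took between 9.63% and 10.2% of counts. The 2 libraries of a group differed by more than counting noise. Levels per principal transcript were added after seeing the data.

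Groups came from the labels. The members and lists were chosen with earlier results of these data known. Named were all 10 members, ALKBH5, MKI67, markers, pseudogenes, overlapping genes and, from each list, up to 3 called genes per direction with the largest change and a mean of at least 1 CPM. Transcripts and coordinates are from GENCODE 29, exact shared stretches from blastn 2.17.0 and ratios were tested with scipy 1.17.1.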

Additional observations from a re-analysis of the deposited data

How the results depend on the processing

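Over 15 alternatives, the log2 fold changes of 9 of the 10 replacement histone genes kept their sign, and that of H2AFZ, never called, ran from -0.047 without siControl replicate 2 to 0.125 without siControl replicate 1. The number called higher was 3 or 2 and the number called lower 4 or 3, except that limma on log2(FPKM + 0.1) called 1 lower and a fold threshold (1 on the log2 scale) left 0 in either direction. Genes called over the whole table numbered 2913 higher and 2610 lower. They were 1491 and 1487 with limma on log2(FPKM + 1), 1227 and 1209 on log2(FPKM + 0.1), and 244 and 196 with the fold threshold added. DESeq2 called 1444 lower, and an adjusted p under 0.01 left 1723 lower. In the related lists, where 41 genes were higher and 18 lower, limma on log2(FPKM + 1) called 27 higher, limma on log2(FPKM + 0.1) called 26 higher and 9 lower, DESeq2 called 11 lower, and the fold threshold left 4 and 2. The cause was not tested.

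The authors' deposited comparisons each set a siALKBH5 library against the same-numbered siControl library, and the labels do not say whether these were paired. The deviations of the same-numbered libraries correlated at 0.0489 over genes. This cannot settle the pairing, since each group gives a single deviation per gene. With the replicate block, 3091 genes were higher and 2831 lower, and the calls of the 10 genes were those without it. That each group has 2 libraries limits every value here.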
